A study of Drosophila melanogaster with 6 samples.

Results

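The genes described here belong to the JAK/STAT pathway of Drosophila melanogaster: the cytokine genes upd2 and upd3, the receptor genes dome and et, the kinase gene hop, the transcription factor gene Stat92E, the inhibitor genes Socs36E and Ptp61F, and the target genes TotA and chinmo. These 10 members were chosen by symbol among the 16451 genes listed for each library, and all 10 were found. RNA was sequenced from S2 cells, a hemocyte-like line from fly embryos, wild type in genotype by the labels. One group was treated with 10 mM hydrogen peroxide (H2O2) for 30 min at 25 °C (3 libraries), and the control group received an equal volume of Schneider's medium (3 libraries). Both groups were grown with 10% serum, streptomycin and penicillin, and no labelled allele or agent other than H2O2 separates them. The series title names nuclear p38, a stress-activated kinase, but all 6 libraries here come from wild-type cells of 1 line. The labels leave it unsaid if each replicate was its own culture. The p-values below thus rest on the variation among these libraries, and that variation may be technical.

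In flies, secreted Unpaired cytokines bind the receptor Domeless. The receptor-bound kinase Hopscotch is then activated and phosphorylates Stat92E, which moves to the nucleus and switches on its targets. Among these targets is Socs36E, which feeds back to dampen the pathway. Hemocytes are a known source of Unpaired cytokines after injury and infection, and the fat body answers them by secreting Turandot stress proteins such as TotA.

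Libraries held between 35404927 and 42043808 expected counts. Of the 14 hemocyte markers examined, 10 exceeded 1 TPM (a level scaled for transcript length and library size) in at least 1 library and PPO2 was at 0 in all. Their summed level was 1730 to 1926 TPM in H2O2 libraries and 2096 to 2404 TPM in control libraries. The markers did not all move together. In H2O2 and then control cells, Hml averaged 287 and 500 TPM, srp 124 and 121 TPM, and He 384 and 363 TPM. Of the 14 hemocyte markers, 11 were tested. By edgeR, gcm was called higher (2.57% of all tested genes were) and 0 were called lower (0.57% were). With the replicate number as a block, gcm was higher (8.99% of all genes were) and 4 were lower, Hml, eater, Col4a1 and vkg (12.8% were). The level of gcm was near 0, at 0.24 to 0.43 TPM with H2O2 and 0 to 0.05 TPM in controls, so nothing is read from its call. The part of these marker differences in the results below was not tested. The 7 fat body markers never exceeded 0.53 TPM. Summed muscle markers gave 20.7 to 23.4 TPM with H2O2 and 24.1 to 29.3 TPM in controls, neuron markers 5.94 to 7.92 and 7.93 to 10.8 TPM, and ovary markers 119 to 152 and 121 to 149 TPM, in H2O2 and then control libraries. Single genes made most of the ovary and muscle sums, bam at 94.7 to 132 TPM and Mef2 at 19.5 to 28.4 TPM over all libraries. A trend with transcript length ran through the comparison: genes of at least 5 CPM (counts scaled to library size, not to length) with transcripts of up to 1000 nt had a median log2 fold change of 0.16, and those over 8000 nt had −0.57. The slope of log2 CPM per doubling of length was −0.124, −0.0769 and −0.0291 in H2O2 replicates 1 to 3. In control replicates 1 to 3 it was 0.0041, 0.12 and 0.106. The trend thus ran with the groups, and a technical trend and an H2O2 effect on long genes cannot be told apart. Removing the trend can remove either. Replicate 1 of both groups stood apart from replicates 2 and 3 on the second principal component (30.5% of the variance), the first (48.4%) separating H2O2 from control. In bulk RNA, fewer cells with a transcript and less of it per cell cannot be told apart.

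Per transcript length, Stat92E and et were the most abundant members, and upd3 and TotA the scarcest. Stat92E had a level of 99.5 ± 2.64 TPM in H2O2 cells and 119 ± 10.5 TPM in control cells (SD, n = 3 each). The short receptor gene et had 101 ± 10.4 TPM in H2O2 cells and 112 ± 15.9 TPM in control cells, and its range overlapped that of Stat92E in both groups. Ptp61F, a tyrosine phosphatase gene, followed at 65.7 ± 2.51 TPM with H2O2 and 73.1 ± 8.85 TPM in controls, apart from its neighbours in the order in both groups.

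The next 4 genes lay close together. The level of chinmo was 26.0 ± 0.860 TPM with H2O2 and 36.8 ± 2.92 TPM in controls, and that of Socs36E 27.5 ± 5.28 and 28.8 ± 4.42 TPM in H2O2 and control cells. For hop it was 19.1 ± 1.82 and 24.5 ± 1.11 TPM, and for dome 14.6 ± 3.01 and 20.0 ± 3.89 TPM, again H2O2 and then control. Ranges of chinmo and Socs36E overlapped in H2O2 cells but not in control cells, those of Socs36E and hop in control cells but not in H2O2 cells, and those of hop and dome in both. The cytokine gene upd2 overlapped dome in both groups, at 14.9 ± 9.23 TPM with H2O2 and 9.15 ± 7.09 TPM in controls. Lowest were upd3, at 1.45 ± 0.313 TPM in H2O2 cells and 1.47 ± 0.566 TPM in control cells, and TotA, at 1.13 ± 0.144 and 0.210 ± 0.118 TPM in H2O2 and control cells.

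**Figure D1:**
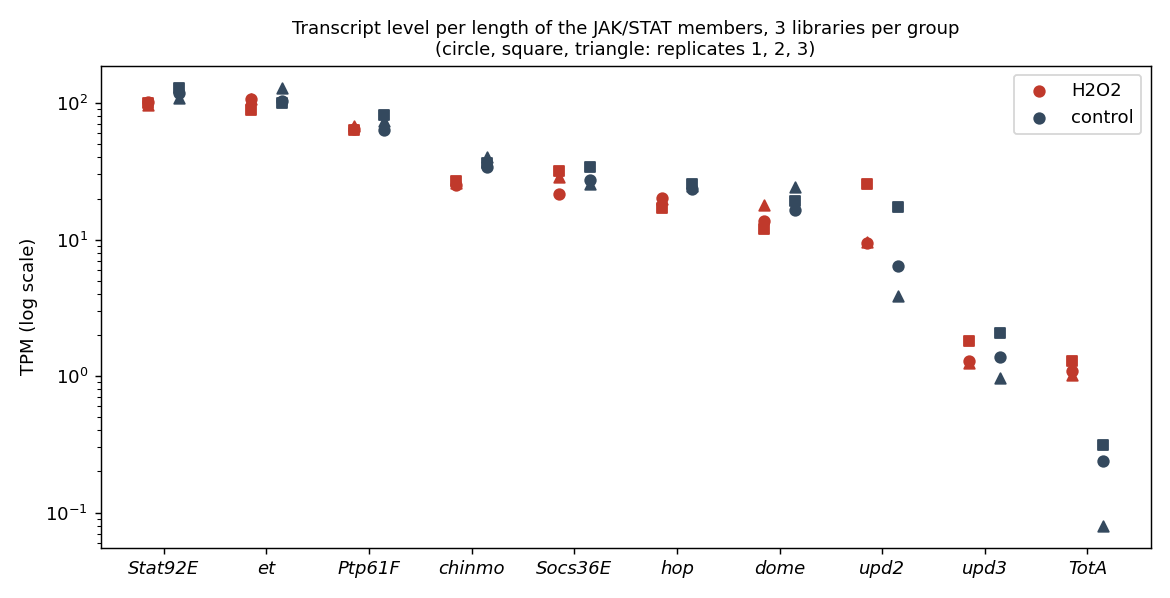
TPM of each member on a log axis, H2O2 libraries in red on the left and control libraries in blue on the right of each gene, 1 point per library. Stat92E and et lie near 100 TPM, upd3 between 0.96 and 2.08 TPM, and TotA is the member whose H2O2 points stand farthest above its control points.

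After H2O2, TotA was the member called higher by edgeR's quasi-likelihood test (adjusted p under 0.05 over 8955 genes tested), and the other 9 were not called. That is 1 of 10 members higher, where 2.57% of all tested genes were, and 0 lower, where 0.57% were (3.14% in either direction). Nothing is read from that count, since TotA passed the filter on low counts only through its H2O2 libraries. Libraries with the same replicate number deviated from their group means together. With the replicate number as a block, 2 members were higher, upd2 and TotA (8.99% of all genes were), and 3 were lower, dome, hop and chinmo (12.8% of all genes were; 21.7% in either direction). With the length trend also removed, upd2 and TotA were again the ones called higher (6.11% of all genes were higher) and 0 members were lower (1.32% were; 7.43% in either direction). Removing the length trend without the block left 0 members called (2.29% of genes higher and 2.39% called in all). DESeq2 called TotA higher without the block (3.12% of genes higher, 2.42% lower and 5.54% in all). With the block it called the same 5 members as edgeR (4.11% of genes higher, 8.19% lower and 12.3% in all). These DESeq2 shares are over all genes with a p-value, including genes left without an adjusted p. The median log2 fold change of the members was −0.07, against 0.02 over all tested genes. With the length trend removed its sign turned, to 0.07 without the block and 0.08 with it, against 0.01 over all tested genes in both fits.

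**Figure D2:**
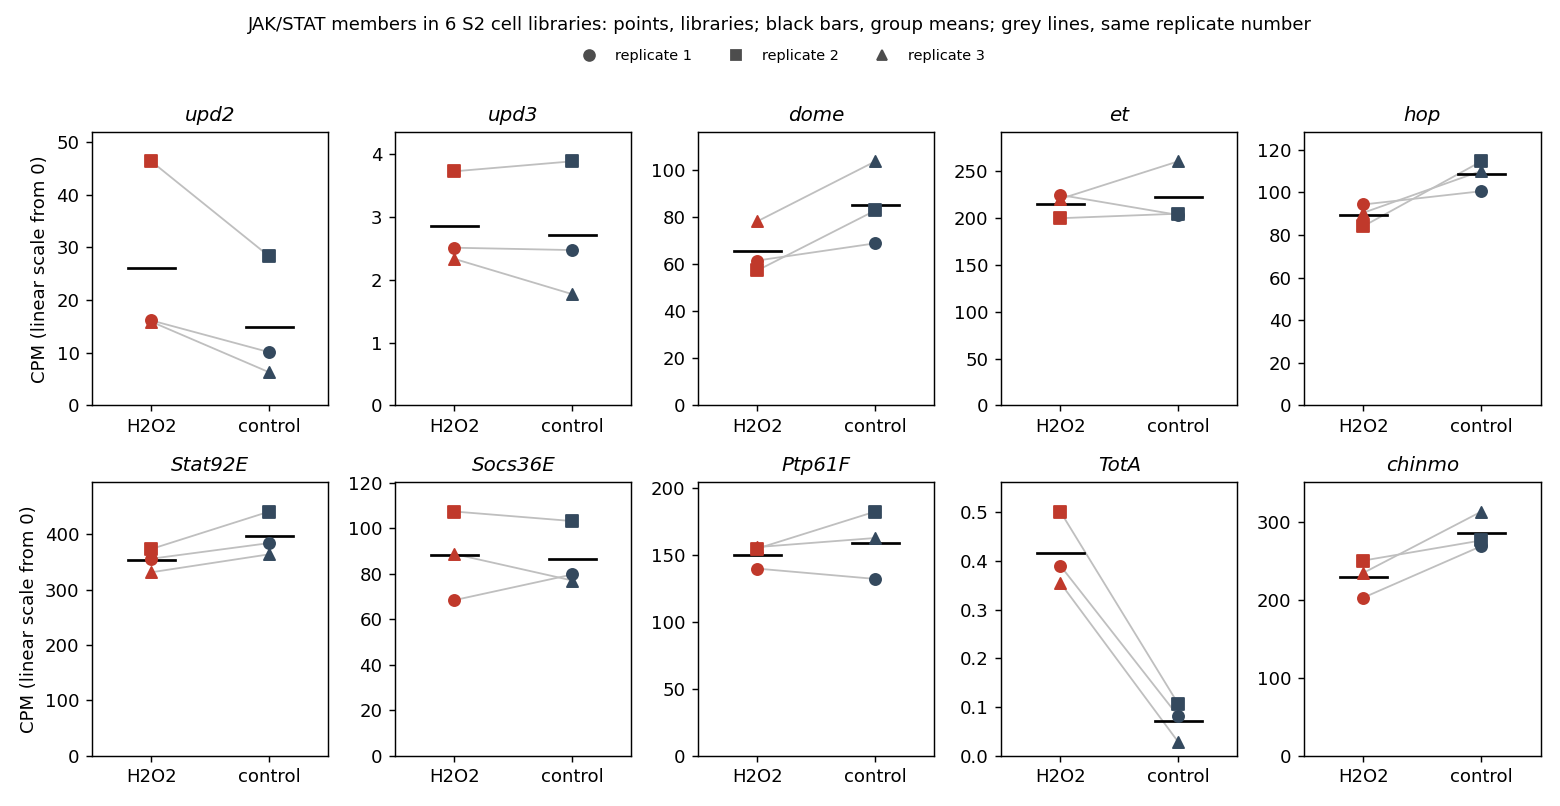
CPM of each member in each library on linear axes that start at 0, H2O2 left and control right, with symbols for the replicate number, black bars for group means and grey lines between libraries of the same number. For upd2 and TotA all 3 lines are higher at the H2O2 end, while for dome, hop, Stat92E and chinmo all 3 are lower there.

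Among the ligands, upd2 was higher with H2O2 within every pair and was called higher where libraries were compared within pairs. Its level differed widely between libraries of the same group. The gene (FBgn0030904, chromosome X, 18240654 to 18243284 in dm6) encodes a secreted cytokine that the fly fat body also uses as a nutrient signal. It had 16.1, 46.3 and 15.9 CPM in H2O2 replicates 1, 2 and 3, against 10.1, 28.3 and 6.28 CPM in control replicates 1, 2 and 3. Replicate 2 was the highest library in both groups, and the groups overlapped. The spread within the control group, 4.50-fold from lowest to highest, exceeded the difference between groups.

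Within same-numbered pairs the ratio of H2O2 to control CPM for upd2 was 1.60, 1.64 and 2.53. Without the block its log2 fold change was 0.81 (SE 0.64, edgeR adjusted p = 0.719), and leaving out 1 library moved it between 0.10 (without H2O2 replicate 2) and 1.67 (without control replicate 2). With the block it rose by 0.89 (SE 0.13, edgeR adjusted p = 0.00211), a fold of 1.85 with a 95% confidence interval of 1.51 to 2.27. It stayed called with the block when any 1 pair was left out, at log2 fold changes of 0.68 to 0.99. In those fits 642 of 9098, 361 of 8989 and 732 of 8990 genes were higher, without pair 1, 2 and 3. So few libraries are left that these fits lean on the spread estimated from other genes. With the length trend removed on top of the block, the log2 fold change of upd2 was 0.89 (edgeR adjusted p = 0.00858). Of the fits run, upd2 was called only in those with the block, a pairing read from the data. Of all genes, 30.3% were higher in all 3 pairs, as upd2 and TotA were, and 26.7% were lower in all 3.

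The second cytokine gene, upd3 (FBgn0053542, chromosome X, 18277233 to 18284596), is the one hemocytes release after wounding and infection. It had 2.51, 3.72 and 2.33 CPM in H2O2 replicates 1 to 3, against 2.47, 3.88 and 1.77 CPM in control replicates 1 to 3. The groups overlapped throughout, and replicate 2 was again the highest in each. Its log2 fold change was 0.08 (SE 0.35, edgeR adjusted p = 0.974) and was not called with the block, where the 95% confidence interval ran from −0.26 to 0.47. The third cytokine gene, upd1, the main ligand of embryonic patterning, had 5 counts over the H2O2 libraries and 3 over the control libraries and was not tested. The 3 genes share a stretch of the X chromosome, with upd3 20.8 kb from upd1 and upd2 33.9 kb from upd3. Nearest upstream of upd2 on its strand, the expressed gene por lay 134 kb away (log2 fold change 0.03, not called).

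The receptor genes dome and et are a tandem pair on the X chromosome, et starting 0.169 kb downstream of dome on the same strand. Domeless spans the membrane and signals, while the shorter et product, Eye transformer, lacks the signalling tail and dampens the pathway. dome (FBgn0043903, 19676061 to 19683518) had 61.6, 57.3 and 78.2 CPM in H2O2 replicates 1 to 3, against 68.9, 82.9 and 104 CPM in control replicates 1 to 3. It was lower in all 3 pairs, though the groups overlapped. The log2 fold change was −0.37 without the block (SE 0.19, edgeR adjusted p = 0.459) and −0.37 with it (SE 0.08, edgeR adjusted p = 0.0072), a call lost without pair 2 (0.0786). After further removal of the length trend it was −0.10 and was not called (edgeR adjusted p = 0.451).

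In contrast, et (FBgn0031055, 19672312 to 19675891) had 224, 200 and 220 CPM in H2O2 replicates 1 to 3, against 203, 204 and 260 CPM in control replicates 1 to 3. Neither group was consistently the higher, and the log2 fold change of −0.05 (SE 0.13, edgeR adjusted p = 0.945) was not called with the block either (95% confidence interval −0.22 to 0.14). In TPM, et exceeded dome 7.78, 7.42 and 6.0 times in H2O2 replicates 1 to 3, and 6.29, 5.27 and 5.37 times in control replicates 1 to 3. This ratio was higher with H2O2 in each pair but overlapped between groups, and the transcripts differ in length, 4875 nt for dome and 2391 to 2394 nt for et; the difference between the ratios was not tested. The 3′ end of et overlaps Zw on the other strand. No source used here states whether the counting used strand, so reads there cannot be told apart.

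The kinase gene hop was lower in every H2O2 library, by a small amount, and the transcription factor gene Stat92E was not called. hop (FBgn0004864, chromosome X, 11360930 to 11368098), the only JAK gene of the fly, had 94.3, 84.1 and 90.4 CPM in H2O2 replicates 1 to 3, against 100.6, 114.6 and 110.1 CPM in control replicates 1 to 3. The groups did not overlap, every H2O2 library being lower, as in 10.4% of all tested genes. The log2 fold change was −0.27 (SE 0.11, edgeR adjusted p = 0.294), called lower with the block (−0.27, SE 0.08, edgeR adjusted p = 0.0282) and at 0.01, not called, after further removal of the length trend. With the block, leaving out pair 2 or pair 3 ended the call (edgeR adjusted p = 0.18 and 0.0834). Its transcript of 5055 nt falls in the bin of 4000 to 8000 nt, where the median gene had −0.29.

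Stat92E (FBgn0016917, chromosome 3R, 20535323 to 20552311) had 356, 374 and 332 CPM in H2O2 replicates 1 to 3, against 384, 441 and 364 CPM in control replicates 1 to 3. It was lower in each pair, with overlapping groups. Its log2 fold change of −0.17 (SE 0.12, edgeR adjusted p = 0.687) was not called with the block (edgeR adjusted p = 0.12) and was 0.03 after further removal of the length trend.

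Of the inhibitors, neither was called in any of these 3 fits. Socs36E (FBgn0041184, chromosome 2L, 18138675 to 18152417), a direct Stat92E target widely used as a readout of the pathway, had 68.3, 107 and 88.6 CPM in H2O2 replicates 1 to 3, against 79.6, 103 and 77.0 CPM in control replicates 1 to 3. It was lower in pair 1 and higher in pairs 2 and 3. With the block its log2 fold change was 0.01 (SE 0.08, edgeR adjusted p = 0.918), and the 95% confidence interval of the fold was 0.889 to 1.15.

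Ptp61F (FBgn0267487, chromosome 3L, 1342493 to 1475257) encodes a phosphatase that removes phosphate from Hopscotch and Stat92E. It had 140, 155 and 156 CPM in H2O2 replicates 1 to 3, against 132, 182 and 163 CPM in control replicates 1 to 3. The H2O2 libraries lay inside the range of the controls. The log2 fold change was −0.08 (SE 0.14, edgeR adjusted p = 0.903), and −0.07 with the block (95% confidence interval −0.24 to 0.10). The gene spans 132765 nt and encloses the protease gene rho on the other strand. rho had a mean of 54.6 CPM in H2O2 cells and 15.5 CPM in control cells, while Ptp61F averaged 150 ± 8.98 CPM in H2O2 cells and 159 ± 25.4 CPM in control cells.

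**Figure D3:**
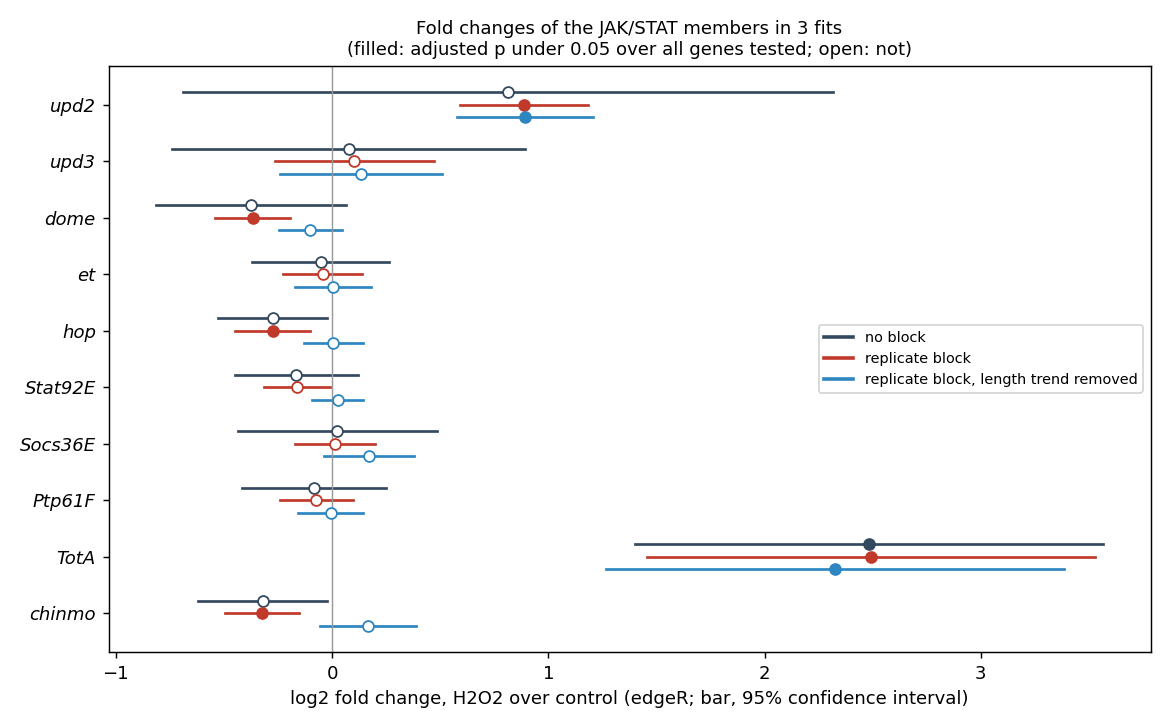
Log2 fold change (H2O2 over control) with its 95% confidence interval for each member in edgeR without the block, with it, and with it and the length trend removed; filled points passed an adjusted p of 0.05. The interval of upd2 narrows with the block, and the points of dome, hop and chinmo, near −0.3 in the first 2 fits, lie at −0.10, 0.01 and 0.17 in the last.

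Of the targets, TotA had the largest fold change of the members, at a very low level. The gene (FBgn0028396, chromosome 3R, 20871036 to 20871700) encodes Turandot A, a small secreted protein that accumulates in fly hemolymph after heat, infection or oxidative stress. It had 14, 21 and 14 counts in H2O2 replicates 1 to 3, against 3, 4 and 1 counts in control replicates 1 to 3. Every H2O2 library was above every control library; the groups separated in this direction in 9.98% of genes. In TPM, RSEM's credibility intervals were 0.609 to 1.76, 0.808 to 1.92 and 0.558 to 1.63 with H2O2, and 0.0567 to 0.635, 0.0919 to 0.721 and 0.00436 to 0.39 in controls.

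The log2 fold change of TotA was 2.48 (SE 0.46, edgeR adjusted p = 0.0385) without the block and 2.49 (SE 0.47, edgeR adjusted p = 0.00334) with it, a fold of 5.63 with a 95% confidence interval of 2.74 to 11.5. It passed the filter on low counts only through its 3 H2O2 libraries, so a tested TotA had to be higher. With no such filter its log2 fold change was 2.47 (edgeR adjusted p = 0.0374). Without the block, leaving out any 1 library ended the call (edgeR adjusted p = 0.0767 to 0.158). Removing the length trend did so too (edgeR adjusted p = 0.0573). The log2 fold change stayed between 2.12 and 2.86 in these fits. Dropping H2O2 library 2, or library 2 or 3 of the controls, left 0 genes called among all tested. The lost call says nothing about TotA there. Dropping library 1 of the controls, or library 1 or 3 of the H2O2 group, left 91, 154 and 113 genes called, but not TotA. Without replicate 1 of both groups the log2 fold change of TotA was 2.61 (edgeR adjusted p = 0.116). That omission, also without the block, gave 0.85 for upd2, −0.46 for dome, −0.37 for hop and −0.28 for chinmo. None was called, but 0 of all 9098 genes were, so nothing is read from the absence of these calls. With the block, leaving out pair 2 gave TotA an edgeR adjusted p of 0.0512. The fat body markers, defining for the tissue that secretes TotA in the fly, summed to 0.47 to 0.75 TPM in H2O2 libraries and 0.22 to 0.31 TPM in control libraries; Lsp1alpha was at 0 in all 6, and their part in the result was not tested.

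TotA heads a cluster of related genes on chromosome 3R, and its neighbours were close to silent. TotB had 0 counts in all 6 libraries, which does not exclude a low expected count, of up to about 3, in each. TotC had 1 count in 1 H2O2 library, TotZ 1 count in 1 control library, and TotX, 33.2 kb away, 1 count in each of 2 H2O2 libraries and 0 in the controls. The nearest expressed gene upstream of TotA on its strand was RpS30, 19.6 kb away, at 2798 ± 286 CPM in H2O2 cells and 2431 ± 193 CPM in control cells (log2 fold change 0.20, edgeR adjusted p = 0.581). TotM, a Turandot gene on another chromosome, had 14, 7 and 9 counts in H2O2 replicates 1 to 3, against 0, 6 and 1 counts in control replicates 1 to 3. The lowest H2O2 library exceeded the highest control by 1 count, and in TPM the groups overlapped. It did not pass the filter; without that filter its log2 fold change was 1.98 (SE 0.82, edgeR adjusted p = 0.323). TotM lies 1.89 kb downstream of the expressed gene cype on the same strand (log2 fold change 0.23, not called).

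The other target, chinmo (FBgn0086758, chromosome 2L, 1651258 to 1704682), encodes a zinc finger factor that acts downstream of Stat92E in testis stem cells and eye discs. It had 203, 251 and 235 CPM in H2O2 replicates 1 to 3, against 269, 277 and 314 CPM in control replicates 1 to 3. The groups did not overlap, with every H2O2 library lower, as in 10.4% of all genes. The log2 fold change was −0.32 (SE 0.13, edgeR adjusted p = 0.31) without the block and −0.32 (SE 0.08, edgeR adjusted p = 0.013) with it, where leaving out pair 1 or pair 3 ended the call (edgeR adjusted p = 0.0663 and 0.0782). After further removal of the length trend the sign turned, to 0.17, and the gene was not called (edgeR adjusted p = 0.402).

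Its transcripts range from 4159 to 12385 nt, and RSEM's abundance-weighted mean length was 8663, 9366 and 9863 nt in H2O2 replicates 1 to 3, against 9023, 8448 and 8737 nt in control replicates 1 to 3. The estimate was shorter with H2O2 in pair 1 and longer in pairs 2 and 3, and the groups overlapped. For the other 4 members with several transcripts, the mean length differed between groups by less than 30 nt: −28.1 nt for Ptp61F, −7.33 nt for Socs36E, −5.84 nt for Stat92E and 1.46 nt for et. Leaving out 1 library moved the difference for Ptp61F between −66.7 and 24.1 nt (24.1 nt without H2O2 replicate 1) and that for Stat92E between −9.97 and 0.417 nt (0.417 nt without control replicate 2), so neither has a settled sign.

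**Figure D4:**
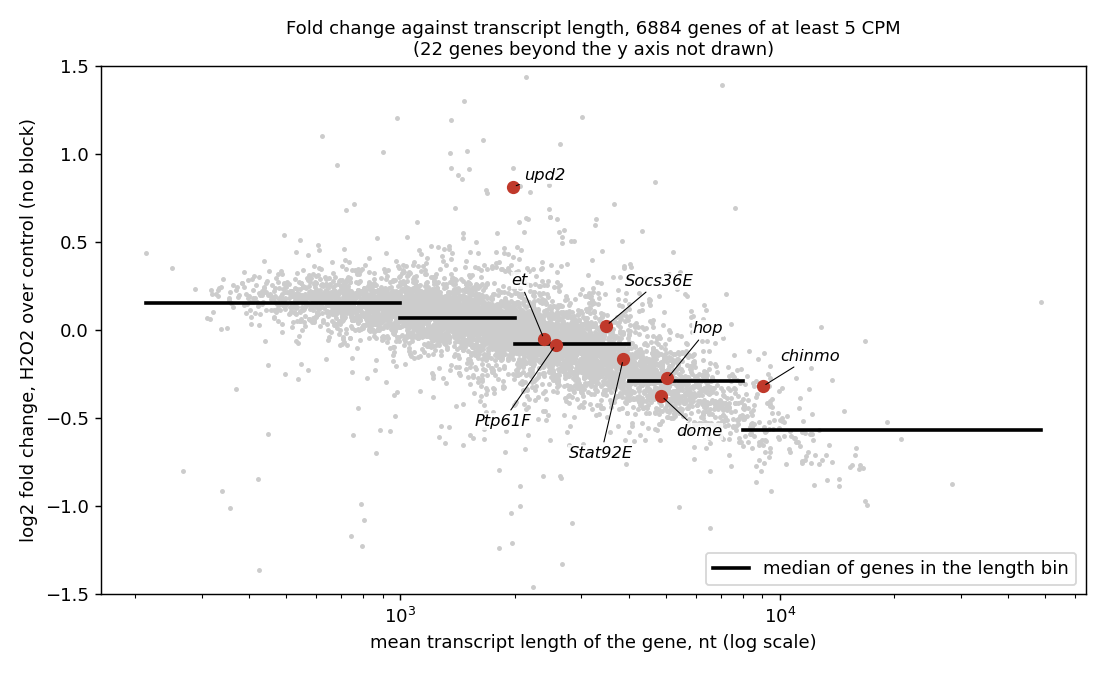
Log2 fold change without the block against mean transcript length (log axis) for genes of at least 5 CPM in grey, with the median of each length bin as a black line and the 8 members of that abundance in red. Most members lie near the median of genes of their length; upd2 (0.81) lies above it, and chinmo (−0.32) above the −0.57 of its bin.

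Set against genes of their own length, dome (−0.37, bin median −0.29), hop, Stat92E (−0.17, bin median −0.08), et and Ptp61F lay within the middle of the distribution, between the 27.8th and the 58.6th percentile of their bins. Socs36E lay at the 79.8th percentile and chinmo at the 85.8th. The value of upd2 without the block, which leaving out 1 library moved between 0.10 and 1.67, stood at percentile 99.3 among genes of 1000 to 2000 nt.

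Among the nearest expressed genes upstream on the same strand (at least 10 CPM), none was called without the block. Closest was DPCoAC, 0.073 kb from Stat92E, with a log2 fold change of 0.03. JMJD4 lay 4.69 kb from Socs36E (0.19), Mer 6.18 kb from dome (0.01) and CG12084 15.7 kb from Ptp61F (−0.25, and lower with the block at an edgeR adjusted p of 0.0267). Evi5, 62.4 kb from hop, had −0.32 and was also lower with the block (edgeR adjusted p = 0.00799). Taf8, 174 kb from upd3, had 0.17, and Tgt, 466 kb from chinmo, had −0.0047.

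A further 25 genes of the pathway were examined, and 17 passed the filter on low counts. Without the block edgeR called 0 of the 17, and 2 of them had an unadjusted p under 0.05, as did 1256 of all 8955 genes. DESeq2, which gave a p-value for 23 of the 25, called 0 higher and 2 lower (3.12% and 2.42% of all genes with a p-value were). Listericin, TotC, TotX and TotZ are among the 23 but had no adjusted p, so they could not be called. With the block 0 were higher and 2 were lower in edgeR, near the 12.8% of all genes that were lower. Further removal of the length trend left 1 higher and 0 lower (6.11% and 1.32% of all genes were). Both lower genes encode chromatin-linked regulators of Stat92E output. E(bx), the large subunit of the NURF remodelling complex, had 360, 319 and 367 CPM in H2O2 replicates 1 to 3, against 500, 501 and 505 CPM in control replicates 1 to 3. Every H2O2 library was lower, as in 10.4% of all tested genes. The log2 fold change of −0.53 (edgeR adjusted p = 0.0526, or 0.000526 with the block) became −0.06 once block and length correction were combined. BRWD3, a bromodomain protein gene, fell by 0.38 on the log2 scale with the block (edgeR adjusted p = 0.00526) and had 0.03 after further removal of the length trend. It overlaps Rrp5 on the other strand, which averaged 175 CPM in H2O2 cells and 230 CPM in control cells. The gene called higher in that last fit was ken, a repressor of some Stat92E targets, at 0.31 (edgeR adjusted p = 0.0205); it was named after its values were seen.

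The 4 of these genes with the highest mean TPM were not called in the fits with or without the block. vir-1, a gene induced through this pathway by virus infection, had 746 TPM on average in H2O2 cells and 700 TPM in control cells (log2 fold change 0.18). The SUMO ligase gene Su(var)2-10, whose product restrains Stat92E, had −0.16, the factor gene zfh1 had −0.12 and the cyclin gene CycD had −0.18. The median log2 fold change of the 17 genes was −0.12, against 0.02 over all tested genes. It too turned with the length trend removed, to 0.06 without the block and 0.07 with it, against 0.01 over all tested genes.

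Over the 6 libraries, the gene most like each of the 8 members of at least 5 CPM was sought by log2 CPM among 6883 genes of that abundance; upd3 and TotA fell short of it. It was MED17 for upd2 (Pearson r = 0.998), CG34408 for dome (0.993), CoRest for et (0.986) and MED1 for hop (0.995). It was CG8202 for Stat92E (0.992), PPP1R15 for Socs36E (0.992), Vinc for Ptp61F (0.995) and CG12236 for chinmo (0.982). These values describe 6 libraries that share replicate number, depth and the length trend. Each is the highest of 6883 correlations over only 6 libraries, so a value near 1 is no sign of shared regulation. MED17 followed the pattern of upd2 with a much smaller range, 44.4 to 48.5 CPM in H2O2 libraries and 41.5 to 46.4 CPM in control libraries.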

How the data were processed

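Stranded poly(A) libraries were made from Trizol-extracted RNA, per the labels' protocols. STAR 2.4.0j, RSEM 1.2.21 and build dm6 are named in the submitters' processing notes; the annotation release and strand setting are not stated in the labels. The deposited tables hold, per the file headers, expected counts, TPM with credibility bounds, and abundance-weighted transcript lengths in nt. Symbols and positions came from Ensembl 115 (BDGP6.54, dm6), matching 16419 of 16451 genes. Sequences were not used here.

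Expected counts were rounded, filtered with filterByExpr (8955 genes), scaled by TMM and tested with edgeR 4.0.16 under R 4.3.3, by its robust quasi-likelihood F test with a single group term (two-sided), with Benjamini-Hochberg adjustment over all genes. SE was taken as log2 fold change over root F. CPM uses TMM-scaled library sizes. DESeq2 1.42.0, limma 3.58.1 on log2(TPM + 1) and log2(TPM + 0.1), other scalings and filters, left-out libraries, a replicate block and a length correction (a lowess trend per library on log2 length, as an offset) were alternatives. The fits were tested on simulated counts. RSEM's posterior SD of the count was 0 for every member.

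Deviations from group means correlated at 0.717, 0.518 and 0.601 between libraries numbered 1, 2 and 3 in both groups, so the numbers were read as pairs; the labels give only the numbers. Chi-square per degree of freedom between libraries was 45.5 or more, so no library was treated as a duplicate. RSEM's credibility intervals cover error within a library only, while the confidence intervals of fold changes come from the edgeR fits.

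Members and lists were chosen with earlier results of these data known. Named genes were the 10 members, their nearest upstream expressed gene (at least 10 CPM) and clusters, the other pathway genes that were called or among the 4 most abundant, and the most alike gene per member.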

Additional observations from a re-analysis of the deposited data

How the results depend on the processing

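Without the block, 0 members were called higher with the filter of 50 counts (TotA not tested) or with the length trend removed. The same held without any 1 library (0 to 0) and without replicate 1 of both groups. Of all genes, 60 of 7718, 2.29%, 0 to 134 genes and 0 were higher in these fits, in that order. The block gave 2 (8.99% of all genes were higher), also with the length trend removed (6.11%), with DESeq2 (4.11%) and without pair 1 (642 of 9098 genes) or pair 3 (732 of 8990). Members called lower numbered 3 with the block in edgeR and in DESeq2 (12.8% and 8.19% of all genes were). They numbered 2, 1 and 1 in edgeR without pair 1, 2 and 3, where 894 of 9098, 407 of 8989 and 920 of 8990 genes were lower. Lost in these were dome without pair 2 (edgeR adjusted p = 0.0786), hop without pairs 2 and 3 (0.18 and 0.0834) and chinmo without pairs 1 and 3. Of the other pathway genes, 1 was higher with block and length correction together (6.11% of all genes were). Lower were 2 in DESeq2 with and without the block (8.19% and 2.42% of all genes were) and 2 with the block in edgeR (12.8%). In limma at a pseudocount of 0.1, 1 was lower (70 of 8955 genes were). With the block in edgeR, 3, 1 and 2 were lower without pair 1, 2 and 3, where 894 of 9098, 407 of 8989 and 920 of 8990 genes were.

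All genes called numbered 281 in edgeR without the block, 738 in DESeq2, 76 with the filter of 50 counts, 1947 with the block, 665 with block and length correction together, and 1639 in DESeq2 with the block. Without pair 1, 2 and 3 the block gave 1536, 768 and 1652. Without any 1 library 0 to 154 were called, with 0 when H2O2 library 2, or library 2 or 3 of the controls, was dropped. Without replicate 1 of both groups edgeR called 0, with 1578 at an unadjusted p under 0.05.

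Where an alternative turned the sign of a member, the value under it was not called. For upd3 the log2 fold change was −0.17 to 0.42 without any 1 library and −0.0362 with the block without pair 3. For et it was −0.117 to 0.0699 without any 1 library, 0.0037 with block and length correction together and 0.0403 with the block without pair 3. With the length trend removed, without and with the block, hop had 0.0076 and 0.0056, Stat92E 0.0266 and 0.0271, and chinmo 0.171 and 0.167. Socs36E had −0.0716 and −0.0743 in limma at the larger and the smaller pseudocount, −0.15 to 0.18 without any 1 library, −0.0016 in DESeq2 with the block, and −0.0148 and −0.0948 with the block without pairs 2 and 3. Ptp61F had −0.204 to 0.0225 without any 1 library and 0.0029 with the block without pair 2. The causes were not tested. For upd2, leaving out 1 library moved the log2 fold change between 0.10 and 1.67 without the block. TotA was called in limma on log2(TPM + 1) at 0.82 (adjusted p = 0.0146).

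The block changed the calls of upd2, dome, hop and chinmo and of no other member. Leaving out replicate 1 of both groups, the DESeq2 fit with the block and the left-out pairs were chosen after seeing the data. TotA rests on 49 counts in H2O2 libraries and 8 in control libraries, and 3 libraries a group limit all calls.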
